A study of Homo sapiens with 4 samples.

Results

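Claudins are the membrane proteins that close the space between epithelial cells at the tight junction. They assemble into strands that seal the gap or, depending on the member, leave charge-selective pores in it. In liver the tight junction separates bile from blood, between neighbouring hepatocytes and between the cholangiocytes that line bile ducts. The 10 claudins described here were taken by gene name, CLDN1, CLDN2, CLDN3, CLDN4, CLDN6, CLDN7, CLDN9, CLDN10, CLDN12 and CLDN15, from a table of 58174 genes. Each name matched a single gene, and 8 of the 10 reached 1 FPKM (fragments scaled to transcript length and to the total mapped in the library) in any library, which was the level required for a test.

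The study sequenced messenger RNA of 2 human cell lines, LM3, from hepatocellular carcinoma, and RBE, from intrahepatic cholangiocarcinoma. FENDRR, a long noncoding RNA, was targeted by RNA interference (si-FENDRR), control cells received si-NC, all with a Lipofectamine reagent, and RNA was taken 48 h later. There was 1 library for each line and transfection, 4 in all, so a difference between transfections within a line has no replicate check. Of each pair of values, si-FENDRR comes first. The labels name no separate cultures, and p-values measure only the spread between these libraries. In bulk RNA, fewer cells that express a gene and less of its RNA per cell cannot be told apart.

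The 4 libraries had 13437 to 13682 genes at 1 FPKM or more. FENDRR itself was listed at 0 in all 4 libraries, si-NC included, so the transfections are compared by label alone. Of 9 cholangiocyte markers, 7 reached 1 FPKM in RBE and 4 in LM3. They summed to 1289 and 1104 FPKM in LM3 and to 1608 and 1566 FPKM in RBE. Most of the LM3 sums was SPP1, at 1118 and 909 FPKM against 515 and 504 in RBE. The other cholangiocyte markers were all higher in RBE, such as KRT19 (156 and 181 against 467 and 466 FPKM). Of 10 hepatocyte markers, 4 reached 1 FPKM in LM3 and 5 in RBE, and their sums of 93.4 and 90.6 FPKM in LM3 and 79.3 and 108 FPKM in RBE overlapped. ALB was higher in LM3 (35.7 and 33.3 against 0.251 and 0.270 FPKM), and SERPINA1 in RBE (56.8 and 82.5 against 0.0957 and 0.0892 FPKM). The 5 mesenchymal markers summed to 3.66 and 3.52 FPKM in LM3 and to 825 and 900 FPKM in RBE, nearly all of it VIM. Of 4 endothelial markers 1 reached 1 FPKM in LM3 and 0 in RBE, and of 4 blood cell markers 1 did in each line, CD68, at 60.1 and 62.2 FPKM in LM3 against 14.2 and 13.9 in RBE. The part of these markers in the differences between the lines was not tested.

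The genes lie on 6 chromosomes of hg38, and 4 of them sit on chromosome 7. CLDN3 (73768997 to 73770270, minus strand) and CLDN4 (73799542 to 73832693, plus strand) are neighbours there, with CLDN12 at 90383721 to 90513402 and CLDN15 at 101232092 to 101238820. CLDN6 (3014712 to 3020071) and CLDN9 (3012456 to 3014505) adjoin each other on chromosome 16. CLDN1 is on chromosome 3 (190305701 to 190322475), CLDN7 on chromosome 17 (7259903 to 7263983), CLDN10 on chromosome 13 (95433604 to 95579759) and CLDN2 on chromosome X (106900164 to 106930861).

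Both neighbouring pairs are close paralogs. The longest run of bases shared by transcripts of 2 members is shown because a fragment that falls inside it cannot be assigned from its sequence alone. Both runs lie in coding exons of GENCODE release 29 (hg38). That of CLDN3 (chr7:73769832-73769902, minus strand) and CLDN4 (chr7:73831352-73831422, plus strand) is 71 bases long, and its 48 capitals occur in CLDN6 as well. That of CLDN6 (chr16:3015846-3015919, minus strand) and CLDN9 (chr16:3013465-3013538, plus strand) is 74 bases long, with the 18 bases also found in CLDN3 and CLDN4 in capitals.
CLDN3 and CLDN4: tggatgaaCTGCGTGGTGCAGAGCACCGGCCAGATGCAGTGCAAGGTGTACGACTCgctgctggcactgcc
CLDN6 and CLDN9: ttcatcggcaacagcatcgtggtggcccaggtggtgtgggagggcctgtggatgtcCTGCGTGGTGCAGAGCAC
Such stretches were short against the whole transcripts. Of all 50-base words in its transcripts, CLDN3 shared 1.80% with another claudin, CLDN6 1.44%, CLDN9 1.25%, CLDN4 0.464% and each of the other 6 members 0%.

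For CLDN10, CLDN2, CLDN12, CLDN7 and CLDN6, overlap or shared sequence with genes that are no claudins was larger. Of the 50-base words of CLDN6, 8.01% occurred in other genes, AL353807.1 and CLDN9, and 1.44% in claudins. Of the exonic bases of CLDN10, 46.1% lie opposite exons of DZIP1, which was at 1.60 to 2.60 FPKM in the 4 libraries. For CLDN2 the share opposite RIPPLY1 is 10.0%, with RIPPLY1 at 0 in LM3 and 0.529 and 0.471 FPKM in RBE. CLDN12 shares 1195 of 6741 exonic bases with genes on its own strand, among them GTPBP10 and CDK14, and CLDN7 shares 269 of 2492 with AC003688.1. The strand setting was not found in the labels, so the values of CLDN10 and CLDN2 may hold reads of the genes opposite them. Those of CLDN12 and CLDN7 may hold reads of their overlapping genes whatever the strand setting.

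**Figure D1:**
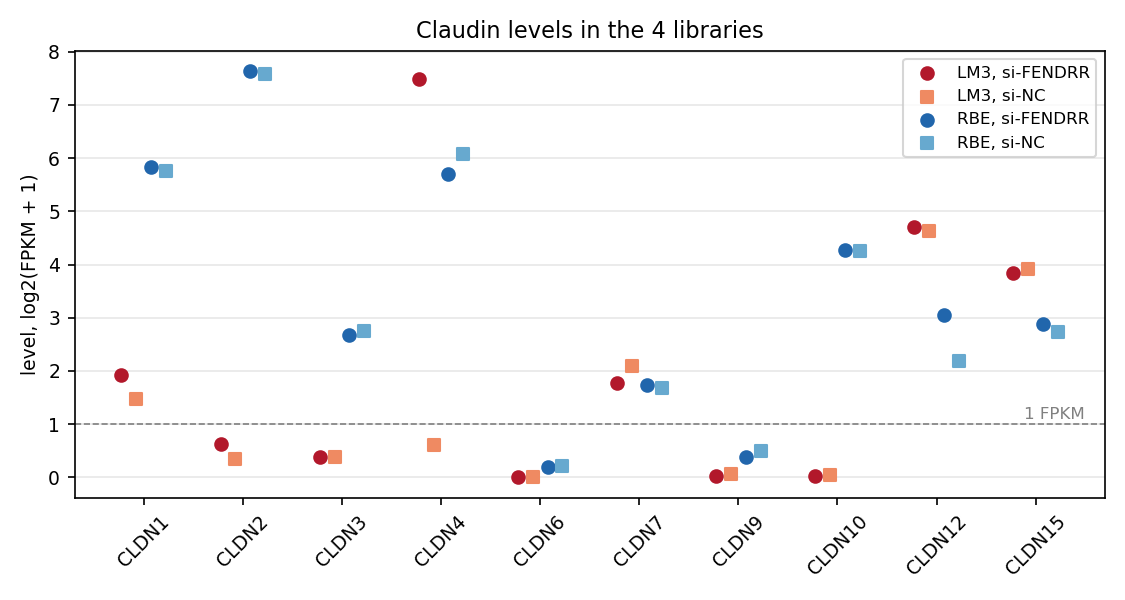
Level of each claudin as log2(FPKM + 1) in each of the 4 libraries, with LM3 in red and orange and RBE in blue, circles for si-FENDRR and squares for si-NC. The LM3 libraries of CLDN4 lie 6.89 apart, and no other pair of libraries of a line lies more than 0.86 apart.

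The lines carried different claudins. RBE was led by CLDN2, CLDN4 and CLDN1, and the 10 members summed to 345.1 FPKM in either of its libraries. In LM3 with si-NC they summed to 44.1 FPKM, of which CLDN12 made up 53.7% and CLDN15 32.2%. In LM3 with si-FENDRR the sum was 224 FPKM, and 80.2% of it was CLDN4. Without CLDN4 the sums were 44.4 and 43.6 FPKM in LM3 and 294 and 278 FPKM in RBE, so within each line the rest of the family differed little in total.

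**Figure D2:**
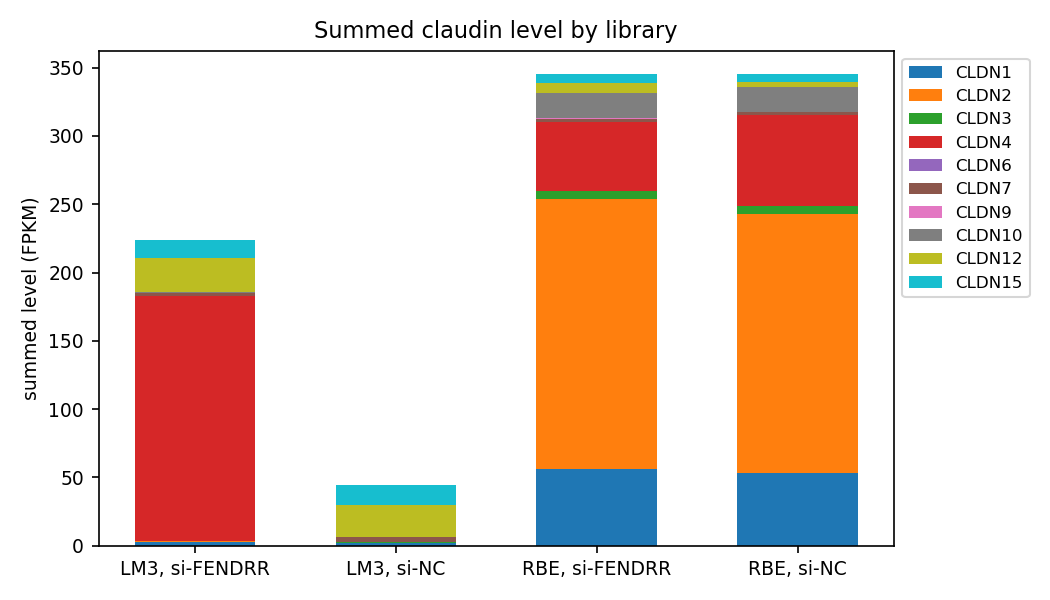
Summed level of the 10 claudins in FPKM, 1 bar for each library, with a colour for each gene. CLDN2 makes up more than any other member in both RBE bars, CLDN12 in LM3 with si-NC and CLDN4 in LM3 with si-FENDRR.

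Between the lines, 6 of the 8 tested claudins were called by limma, 4 higher in RBE and 2 higher in LM3. Over all 15930 tested genes, 58.7% were called, 26.4% higher in RBE and 32.3% higher in LM3. The median LM3 minus RBE difference of the 8 claudins was -2.09 on the log2(FPKM + 1) scale, against 0.09 over all tested genes. CLDN2, CLDN3 and CLDN10, all called higher in RBE, reached the 1 FPKM needed for a test only in that line. The calls and the median thus include genes admitted through the line where they are high. Among the tested claudins, 7 had no overlap between the libraries of the 2 lines, as did 81.7% of tested genes. CLDN4 was the exception.

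Of the tested members, the pore-forming CLDN2 differed most. CLDN2, which forms a channel for cations and water in leaky epithelia, was at 0.552 and 0.262 FPKM in LM3 against 198 and 190 FPKM in RBE. Both RBE values were far above both LM3 values, which stayed under 1 FPKM. The log2 difference was -7.12 ± 0.13 (SE, n = 2 libraries per line, adjusted p = 0.000584 by limma).

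CLDN10, whose isoforms form either cation or anion pores, followed the same order. It was at 0.0188 and 0.0328 FPKM in LM3 against 18.4 and 18.1 FPKM in RBE, a log2 difference of -4.23 ± 0.13 (SE, adjusted p = 0.000663 by limma). With a pseudocount of 0.1 it was -7.19, and with 5 it was -2.21. DZIP1 on the opposite strand was at 2.60 and 1.89 FPKM in LM3 against 1.60 and 2.03 in RBE. CLDN15, a cation pore best known from the small intestine, went the other way. Its levels were 13.4 and 14.2 FPKM in LM3 against 6.36 and 5.68 in RBE, with no overlap (1.08 ± 0.13 SE, adjusted p = 0.00580 by limma).

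Among the sealing claudins, CLDN1 was lower in LM3. CLDN1, which is needed for the barrier of the skin and serves as an entry factor for a hepatitis virus, was at 2.77 and 1.76 FPKM in LM3 against 55.9 and 52.9 FPKM in RBE. The log2 difference was -4.10 ± 0.15 (SE, adjusted p = 0.000800 by limma). CLDN3, a sealing claudin and receptor of a clostridial enterotoxin, was at 0.295 and 0.300 FPKM in LM3 against 5.41 and 5.72 FPKM in RBE (-2.34 ± 0.14 SE, adjusted p = 0.00155 by limma). In neither gene did the libraries of the lines overlap. The size for CLDN3 depended on the pseudocount, at -3.83 with 0.1 and -0.996 with 5.

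CLDN7, a claudin of basolateral membranes that binds EPCAM, had similar values in all libraries. It was at 2.41 and 3.29 FPKM in LM3 against 2.33 and 2.19 FPKM in RBE, and the log2 difference of 0.23 ± 0.16 SE did not pass (adjusted p = 0.284 by limma). CLDN12, an unusual member that lacks the C-terminal motif by which other claudins bind ZO proteins, was at 24.9 and 23.7 FPKM in LM3 against 7.31 and 3.57 FPKM in RBE. It was higher in LM3 (2.04 ± 0.23 SE, adjusted p = 0.00509 by limma). The difference kept its size without the si-FENDRR library of LM3 (2.003 ± 0.504 SE) or without its si-NC library (2.07 ± 0.504 SE), but the call was lost with 1 LM3 library (adjusted p = 0.0826 and 0.0774 by limma).

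For CLDN4, a sealing claudin and a second receptor of the enterotoxin, no order of the lines could be given. In LM3 the si-FENDRR library had 179 FPKM and the si-NC library 0.515 FPKM, against 50.8 and 66.7 FPKM in RBE. Whether the 0.515 FPKM is a failed estimate was not tested, since the files hold no counts, and every statement on CLDN4 in LM3 with si-NC rests on it. The LM3 values lay above and below both RBE values (-1.84 ± 1.85 SE, adjusted p = 0.434 by limma). Without the si-FENDRR library of LM3, CLDN4 was lower in LM3 (-5.29, adjusted p = 0.0130 by limma), and without the si-NC library of LM3 it was higher in LM3 (1.61, adjusted p = 0.0373 by limma). In both fits LM3 is a single library and the transfection term is left out, so 1 transfection of LM3 is set against both of RBE. The spread then comes from the RBE pair, drawn by limma towards that of other genes.

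The 2 remaining members, CLDN6 and CLDN9, are claudins of embryonic epithelia. CLDN6 was listed at 0 in both LM3 libraries and had 0.141 and 0.160 FPKM in RBE. CLDN9 was at 0.0185 and 0.0400 FPKM in LM3 against 0.295 and 0.400 FPKM in RBE. Both stayed under 1 FPKM in every library and were not tested. With no filter on low values, CLDN9 was called higher in RBE (adjusted p = 0.0386 by limma) and CLDN6 was not (adjusted p = 0.0596 by limma).

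**Figure D3:**
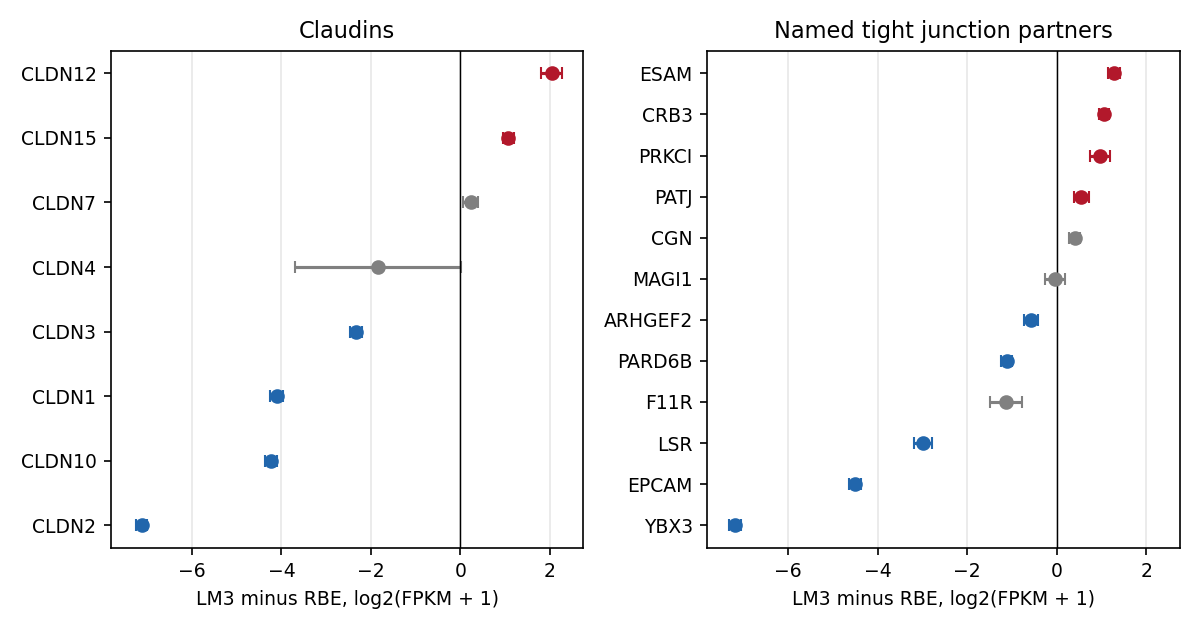
LM3 minus RBE difference on the log2(FPKM + 1) scale, as points with limma standard errors, for the tested claudins on the left and the named tight junction partners on the right. Blue marks genes called higher in RBE, red those called higher in LM3 and grey those not called, and CLDN4 has the widest error, 1.85.

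The table holds 14 further claudin genes. Of these, 4 were listed at 0 in all libraries, 7 stayed below 1 FPKM with a highest value of 0.537, and 3 reached 1 FPKM. CLDN23 was at 7.91 and 8.56 FPKM in LM3 against 1.90 and 1.66 FPKM in RBE (1.73 ± 0.14 SE, adjusted p = 0.00260 by limma). CLDN16, a renal claudin that lies head to head with CLDN1, was listed at 0 in LM3 and had 1.07 and 0.556 FPKM in RBE (-0.84 ± 0.19 SE, adjusted p = 0.0244 by limma). CLDN11, known from myelin and testis, was at 0.699 and 1.03 FPKM in LM3 against 0.121 and 0.0771 FPKM in RBE (0.76 ± 0.17 SE, adjusted p = 0.0264 by limma).

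The proteins that work with claudins at the tight junction were read from a list of 30 genes, of which 26 were tested. Between the lines 16 were called higher in RBE and 5 higher in LM3 by limma, 61.5% and 19.2% against 26.4% and 32.3% of all tested genes. Their median difference was -0.60, and EPCAM and YBX3 among them reached 1 FPKM only in RBE. EPCAM, which stabilises claudin-7 and claudin-1, was at 0.318 and 0.236 FPKM in LM3 against 31.2 and 24.9 FPKM in RBE. YBX3, a Y-box factor that binds the scaffold ZO-1, was listed at 0 in LM3 and had 160 and 131 FPKM in RBE. Higher in LM3 were the adhesion molecule ESAM (10.1 and 9.78 against 4.04 and 3.01 FPKM), the polarity protein CRB3 (14.1 and 15.1 against 6.29 and 6.76 FPKM) and the polarity kinase PRKCI (9.15 and 4.24 against 3.04 and 2.46 FPKM).

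Between si-FENDRR and si-NC over both lines, none of the 8 tested claudins was called by limma. Of all 15930 genes 0.0% were called, 657 had an unadjusted p under 0.05, and the smallest adjusted p of a claudin was 0.959. Without adjustment, 0 of the 8 had a p under 0.05. The log2 difference over both lines was 3.25 ± 1.85 SE for CLDN4 and 0.47 ± 0.23 SE for CLDN12, each with an adjusted p of 0.959 by limma. With si-FENDRR, 3 of 8 were higher in both lines and 1 was lower in both, against 26.9% and 21.8% of all tested genes. CLDN1, CLDN2 and CLDN12 were the 3, and CLDN3 was the 1, with log2 differences of -0.01 in LM3 and -0.07 in RBE.

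**Figure D4:**
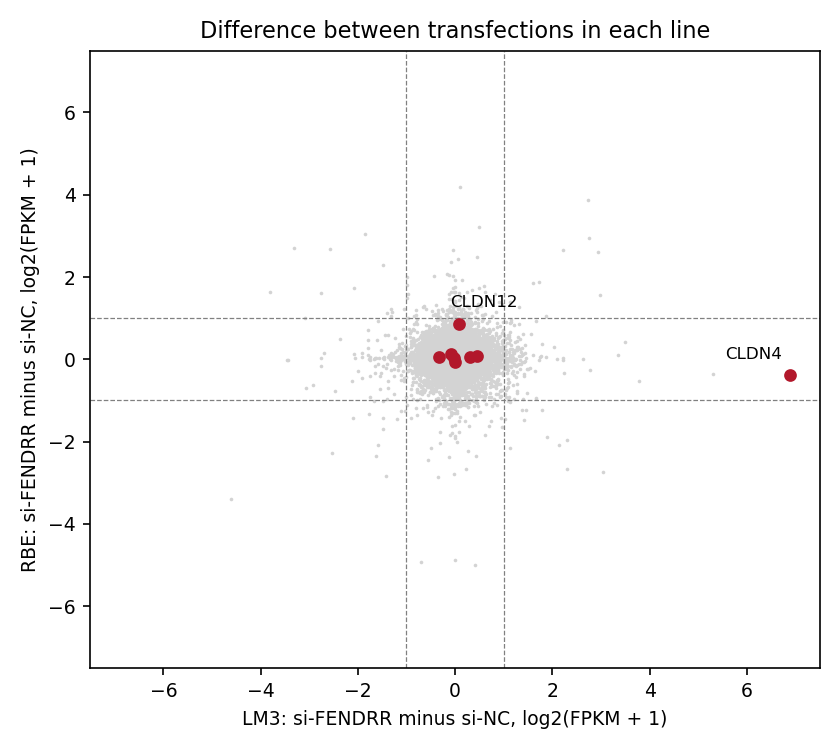
Difference between si-FENDRR and si-NC on the log2(FPKM + 1) scale, LM3 on the horizontal axis and RBE on the vertical axis, with the 15930 tested genes in grey, the 8 claudins in dark red and dashed lines at a 2-fold difference. CLDN4 lies at 6.89 in LM3 and -0.39 in RBE, CLDN12 at 0.07 and 0.86, and the others near the centre.

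Within LM3, CLDN4 was the only tested claudin at least 2-fold apart, and it was higher with si-FENDRR. Of all tested genes 2.13% were at least 2-fold apart, 1.19% higher and 0.942% lower. Its log2 difference of 6.89 was the highest of the 15930 genes, and it rests on the single si-NC value of 0.515 FPKM, whose reliability was not tested. The other 7 lay between -0.33 and 0.45. CLDN1, at 2.77 against 1.76 FPKM, had the difference of 0.45, and CLDN7, at 2.41 against 3.29 FPKM, that of -0.33. Of all tested genes, 13.4% lay at least as far from 0 as CLDN1 and 22.5% at least as far as CLDN7.

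Within RBE, none of the tested claudins was 2-fold apart, against 1.75% of all tested genes, 0.879% higher and 0.873% lower. CLDN12 came nearest, with 7.31 FPKM after si-FENDRR and 3.57 FPKM after si-NC, a log2 difference of 0.86 or a ratio of 1.82 for FPKM + 1 and 2.05 for FPKM itself, and 2.53% of tested genes lay at least as far from 0. CLDN4 was lower with si-FENDRR there, at 50.8 against 66.7 FPKM (-0.39), the reverse of LM3. The difference between the lines in this response, 7.28 for CLDN4, could not be tested with 1 library per line and transfection. CLDN2 and CLDN1, the other abundant claudins of RBE, were at 198 against 190 and at 55.9 against 52.9 FPKM. Of the 26 tested tight junction partners, 0 were called over both lines by limma, 11 were higher in both lines and 5 lower in both, against 0.0%, 26.9% and 21.8% of all tested genes.

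The genes beside CLDN4 did not share its difference. CLDN3, whose lower coordinate lies 30.5 kb from that of CLDN4, was at 0.295 and 0.300 FPKM in LM3, and ABHD11, a hydrolase gene further on that side, at 43.7 with si-FENDRR and 47.2 with si-NC. On the other side METTL27, a methyltransferase-like gene, was at 5.82 and 6.83 FPKM and WBSCR28 at 0.198 and 0.438 FPKM. Over the 4 tested genes within 100 kb the log2 difference in LM3 ran from -0.21 to -0.01. Around all 10 members, 47 tested genes that are no members started within 100 kb. Of these, 1 was at least 2-fold apart in LM3 and 0 in RBE, against 2.13% and 1.75% of all tested genes. That 1 was the microRNA gene MIR4653 near CLDN15, at 3.48 and 0.896 FPKM in LM3. It spans only 101159473 to 101159555, inside AP1S1 on the same strand, which was at 136 and 132 FPKM in LM3. Whether the MIR4653 values hold reads of AP1S1 was not tested.

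**Figure D5:**
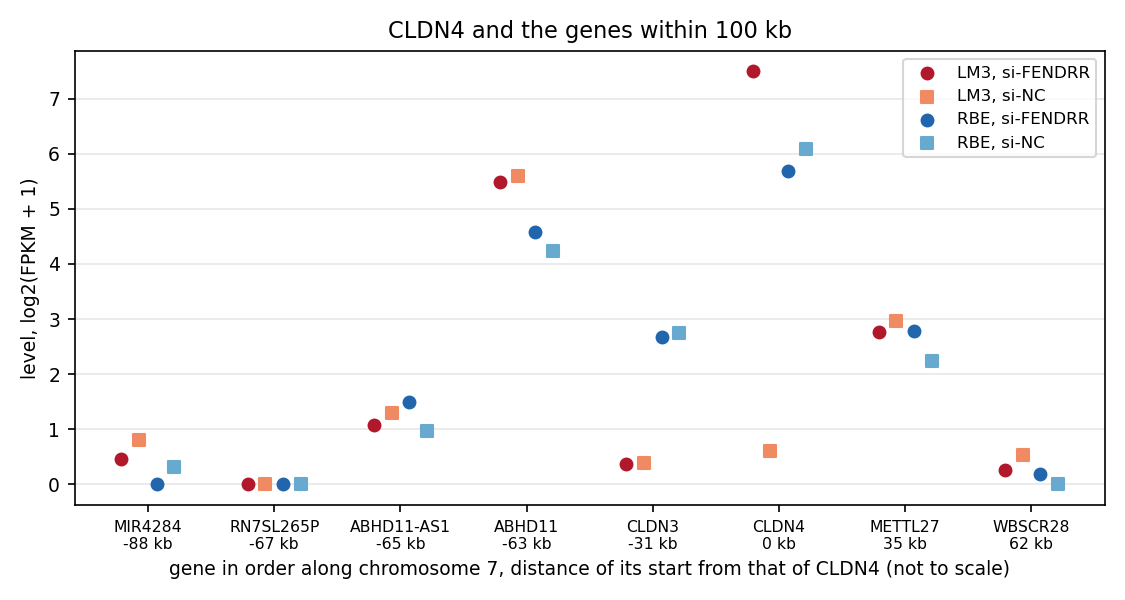
Level as log2(FPKM + 1) of CLDN4 and the 7 genes that start within 100 kb, in order along chromosome 7 with the distance of each start in kb, for the 4 libraries. The LM3 libraries of CLDN4 lie 6.89 apart, and those of the 4 tested neighbours at most 0.21.

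The genes whose levels over the 4 libraries were most like CLDN4 were BLOC1S5-TXNDC5, AL662899.3 and TMEM11. Their Euclidean distances on the log2(FPKM + 1) scale were 2.32, 3.50 and 3.70. BLOC1S5-TXNDC5, a readthrough model, was at 38.3 FPKM in LM3 with si-FENDRR, was listed at 0 there with si-NC, and had 64.3 and 83.1 FPKM in RBE. In LM3, AL662899.3 was at 19.9 and 0.856 FPKM and TMEM11 at 36.7 and 10.1 FPKM. All were picked for likeness to CLDN4, so a lower si-NC value in LM3 was part of the choice. For CLDN2 the nearest genes were YBX3, PMEPA1 and COTL1, at distances of 0.94, 1.13 and 1.15. PMEPA1 was at 0.0193 and 0.0448 FPKM in LM3 against 121 and 126 FPKM in RBE. No gene lay as near to CLDN4 as these lay to CLDN2.

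The start regions of the sealing claudins are shown because repressors of the Snail and ZEB families are known to bind the E-box CAGGTG in claudin promoters, and because the levels of these factors were measured in the same libraries. SNAI1 was at 18.4 and 18.7 FPKM in LM3 against 0 and 0.124 FPKM in RBE (4.21 ± 0.13 SE, adjusted p = 0.000697 by limma). ZEB2 was higher in LM3 as well (2.46 ± 0.15 SE, adjusted p = 0.00159 by limma), and ZEB1, at 3.51 and 4.96 FPKM in LM3 against 3.35 and 2.63 FPKM in RBE, was not called (adjusted p = 0.189 by limma). Each window runs from 250 bases before to 50 bases after a RefSeq gene start (GRCh38.p14), 5′ to 3′ on the gene's strand, with CAGGTG or its reverse complement CACCTG in capitals. The windows are chr3:190322397-190322696 (minus strand) for CLDN1, chr7:73770221-73770520 (minus strand) for CLDN3, chr7:73830746-73831045 (plus strand) for CLDN4 and chr17:7262429-7262728 (minus strand) for CLDN7.
CLDN1: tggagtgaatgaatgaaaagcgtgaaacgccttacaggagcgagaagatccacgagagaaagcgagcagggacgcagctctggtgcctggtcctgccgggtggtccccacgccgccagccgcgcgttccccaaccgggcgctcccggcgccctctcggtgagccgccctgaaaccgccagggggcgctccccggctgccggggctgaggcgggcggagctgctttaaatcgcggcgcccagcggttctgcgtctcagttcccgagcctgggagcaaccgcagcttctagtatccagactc
CLDN3: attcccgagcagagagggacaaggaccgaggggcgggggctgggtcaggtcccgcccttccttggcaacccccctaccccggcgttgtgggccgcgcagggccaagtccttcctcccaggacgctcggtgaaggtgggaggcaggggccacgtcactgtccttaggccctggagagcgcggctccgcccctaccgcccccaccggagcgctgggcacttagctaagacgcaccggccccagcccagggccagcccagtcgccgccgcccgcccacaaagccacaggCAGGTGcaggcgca
CLDN4: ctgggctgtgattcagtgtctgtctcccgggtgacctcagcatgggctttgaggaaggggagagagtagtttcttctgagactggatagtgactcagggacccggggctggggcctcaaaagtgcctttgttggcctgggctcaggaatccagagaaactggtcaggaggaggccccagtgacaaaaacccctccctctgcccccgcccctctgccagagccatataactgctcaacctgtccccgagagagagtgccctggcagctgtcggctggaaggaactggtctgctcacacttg
CLDN7: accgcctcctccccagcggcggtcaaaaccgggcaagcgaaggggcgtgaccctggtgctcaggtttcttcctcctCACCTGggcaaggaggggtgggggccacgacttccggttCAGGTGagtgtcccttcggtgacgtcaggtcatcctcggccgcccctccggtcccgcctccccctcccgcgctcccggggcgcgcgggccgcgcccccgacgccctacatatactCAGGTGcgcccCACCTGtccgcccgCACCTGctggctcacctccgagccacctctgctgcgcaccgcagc
The CLDN7 window shown held 5 matches, a further RefSeq window of that gene (chr17:7263164-7263463, minus strand) held 0, that of CLDN3 held 1, and those of CLDN1 and CLDN4 held 0. RefSeq windows were found for 9 of the 10 members, all but CLDN9, 12 windows in all, and 3 of the 12 held a match, against 20.6% of 35116 windows of the same length. The CLDN4 window lies within the GENCODE span of the gene (73799542 to 73832693, plus strand) and not at the start of that span. A match is a description of these letters and not a binding site.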

How the data were processed

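The deposited values are FPKM per gene, per the file headers. FastQC and, for alignment to hg38, HISAT2 are named in the submitters' processing notes, without versions. Neither the quantification program and its annotation nor its rule for reads matching multiple genes was found in the labels. The 4 single-library files hold the values of the whole table. Counts and depth are not in the files: in single-exon genes, values near 0 were tested against multiples of a common step, and 11.8% to 16.3% came within 0.05 of one, so reads were not recovered. Precision is therefore unknown beyond the spread of libraries, and a listed 0 can be a failed estimate.

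Log2(FPKM + 1) of 15930 genes with at least 1 FPKM in any library was fitted with limma 3.58.1 (R 4.3.3, trended prior variance), with terms for line and transfection, which leave 1 residual degree of freedom. Benjamini-Hochberg adjustment over all tested genes had a threshold of 0.05. The scale understates changes of weakly expressed genes. Within a line, FPKM + 1 had to differ 2-fold. An exact permutation test of 2 against 2 libraries cannot go below p = 0.333 and was not used. With data simulated from the fitted variances, false calls exceeded the adjusted threshold, while with variances drawn from the prior their share was near it. With 1 residual degree of freedom the adjusted p-values may be too small. Positions came from the table, and exons and overlaps from GENCODE release 29, where the 10 members have the same start and end.

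The members and gene lists were chosen with earlier results of these data known. Genes were named by rule: all members, other claudins above 1 FPKM, the 3 highest and lowest of each list between the lines, the 2 most different per direction in each line, the 2 nearest neighbours of CLDN4 on each side, and the 3 most similar profiles for CLDN2 and CLDN4. Some genes that this rule names are not reported here. MIR4653 was named after its values were seen. Alternatives covered pseudocount, filter, scaling, model terms, prior variance and libraries left out. The fits with a library left out had no transfection term.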

Additional observations from a re-analysis of the deposited data

Results flagged for a closer look

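Of the members and named list genes, 4 moved in opposite directions in the lines by at least 0.2 on the log2(FPKM + 1) scale in each, si-FENDRR minus si-NC. None of these differences between the lines was tested, since each rests on 1 library per line and transfection. LSR, MAGI1 and ZEB1 were named for large differences between the transfections, so their choice was not independent of these values. The share of all tested genes that met the same rule was not counted. CLDN4 had 6.89 in LM3 and -0.39 in RBE. The tricellular junction protein LSR had -0.39 in LM3 and 0.20 in RBE. The junction scaffold MAGI1 had -0.35 in LM3 and 0.36 in RBE. The transcriptional repressor ZEB1 had -0.40 in LM3 and 0.26 in RBE.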

How the results depend on the processing

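Between the lines, CLDN1, CLDN2, CLDN3, CLDN10 and CLDN15 kept their direction and their call under all 11 alternatives, with adjusted p by limma of at most 0.0330. Their size depended on the pseudocount, most for CLDN3 (-3.83 with 0.1 and -0.996 with 5, against -2.34) and CLDN10 (-7.19 and -2.21, against -4.23). The number of claudins called was 6 throughout, except 7 with no filter on low values. Without either LM3 library the 6 were not the same genes: CLDN12 was lost and CLDN4 was gained. CLDN4 ran from -5.29 to 1.61 when single libraries were left out. For si-FENDRR against si-NC, 0 claudins were called under every fit, also without the cell line term that pairs the transfections (no replicate block). With 1 library left out this difference is that of the other line, with no test. It then ran from -0.39 to 6.89 for CLDN4, from -0.33 to 0.0627 for CLDN7, from -0.0197 to 0.0237 for CLDN10 and from -0.0804 to 0.14 for CLDN15. CLDN10 turned from 0.00199 to -0.0681 with a pseudocount of 0.1 and to -0.0138 with median-of-ratios scaling, which also took CLDN15 from 0.03 to -0.0012. In RBE, 1 claudin, CLDN12, was 2-fold apart with a pseudocount of 0.1 (1.01) where there were 0 with 1. In LM3 the 6.89 of CLDN4 became 8.19 with a pseudocount of 0.1 and 5.06 with 5. Leaving out a library of a line leaves no difference within it.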

Other observations

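Regulators of junction genes were mostly higher in LM3. Of 18 tested, 11 were called higher in LM3 and 5 higher in RBE by limma, 61.1% and 27.8% against 32.3% and 26.4% of all tested genes, with a median difference of 1.02 against 0.09. The zinc finger factor KLF4 was at 49.9 and 43.4 FPKM in LM3 against 7.92 and 6.94 FPKM in RBE. The repressor ZEB2 was at 4.72 and 5.30 FPKM in LM3 against 0.108 and 0.0819 FPKM in RBE. The forkhead factor FOXA1 was at 6.01 and 6.42 FPKM in LM3 against 18.2 and 16.8 FPKM in RBE. Within LM3 the liver factor FOXA2 had 9.0 FPKM after si-FENDRR and 23.4 FPKM after si-NC, a log2 difference of -1.29 in these 2 libraries, and in RBE it had 16.1 and 15.3 FPKM.

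Of 13 tested adherens junction genes, 6 were called higher in RBE and 2 higher in LM3 by limma, and of 8 tested desmosome genes 4 and 2, where 26.4% and 32.3% of all tested genes were called in these directions and 58.7% in either. The cadherin CDH1 was at 2.58 and 3.31 FPKM in LM3 against 8.04 and 8.56 FPKM in RBE, and CDH2 at 16.7 and 13.8 against 37.8 and 37.3 FPKM. The desmosomal plakophilin PKP3 was higher in LM3, at 18.3 and 29.9 against 2.85 and 2.69 FPKM. The desmosomal cadherin DSC3 and the membrane protein PERP were higher in RBE, DSC3 at 0 and 0.0197 against 3.06 and 3.31 FPKM and PERP at 24.7 and 25.6 against 103 and 118 FPKM. VCL, the actin linker vinculin, had 26.8 FPKM after si-FENDRR and 55.9 FPKM after si-NC in RBE, against 21.8 and 19.95 FPKM in LM3. The junction protein F11R had 13.2 FPKM after si-FENDRR and 5.41 FPKM after si-NC in LM3, against 18.5 and 21.2 FPKM in RBE.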
